A study of Homo sapiens with 16 samples.

Results

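The mRNAs described here encode the subunits of the oxidative phosphorylation complexes in 16HBE, an established line of human bronchial epithelial cells. Members were chosen by symbol, as those that begin like a subunit of complexes I to V (MT-ND, MT-CO, MT-ATP, MT-CYB, NDUFA to NDUFV with a number, SDHA to SDHD, UQCR, COX4 to COX8 and ATP5) and had a mean of at least 1 TPM at both times. TPM is a length-corrected transcript abundance scaled to the same total in every library. Of 25934 symbols listed at either time, 110 matched and 100 were members. These were 80 nuclear-encoded subunits, 13 mitochondrially encoded subunits and 7 further matches that name no subunit (5 pseudogenes and 2 readthrough transcripts), which were counted apart. Among the 80, ATP5IF1 of complex V is a regulatory and COX7A2L of complex IV an assembly protein, and both were kept in the complex of their name. Complex I held 36 nuclear and 7 mitochondrial genes, complex II 4 nuclear genes, complex III 8 and 1, complex IV 14 and 3, and complex V 18 and 2. The 10 matches left out were pseudogenes, antisense or divergent transcripts and the gene copies UQCRHL and ATP5MGL, all under the minimum or listed at 1 time only.

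Cells received D. rotundifolia 3×, an ethanolic whole-plant extract of sundew diluted in water, or Ctrl, the same ethanol vehicle diluted in the same way without the plant. Medium and serum were common to both groups, so both carried the trace of ethanol. RNA was taken after 3 h or 6 h of exposure, giving 16 libraries, 4 for each treatment and time. The later time had Ctrl cultures of its own, in an experiment apart from the earlier one. The paper describes biological replicates for the earlier time, and a new series of 4 experiments that included 6 h of incubation. The labels do not tie libraries to separate cultures, so the tests measure the spread between these libraries, which may be technical in part. Treated cells were compared with Ctrl at each time, complex by complex and for the nuclear and the mitochondrial genome in turn.

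Oxidative phosphorylation passes electrons from NADH through complex I, or from succinate through complex II, to complex III and then to complex IV, which reduces oxygen. Complexes I, III and IV pump protons out of the mitochondrial matrix, and complex V, the ATP synthase, uses their return to make ATP. Mitochondrial DNA encodes the core membrane subunits of every complex except complex II, while all other subunits are made in the cytosol and imported. The mitochondrial mRNAs are cut out of long transcripts of both strands of a circular genome, and MT-ND6 is the only one read from the light strand. Each complex therefore needs products of both genomes in fixed proportions, although mRNA levels do not have to follow them.

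A pair of mitochondrial mRNAs carries overlapping reading frames, and the stretches are shown because reads from them belong to both genes. MT-ATP8 (chromosome M, 8366 to 8572, plus strand, hg38) encodes a small subunit of the ATP synthase and shares 46 bases with MT-ATP6 (8527 to 9207), the subunit of its proton channel. MT-ND4L and MT-ND4, subunits of the membrane arm of complex I, share 7 bases. Capitals mark the shared bases (hg38, plus strand, chrM:8512-8587 and chrM:10745-10781).
MT-ATP8 and MT-ATP6: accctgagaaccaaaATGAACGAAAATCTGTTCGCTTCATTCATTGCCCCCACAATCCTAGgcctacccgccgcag
MT-ND4L and MT-ND4: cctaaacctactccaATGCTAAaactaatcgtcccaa
Reads were 75 bases long, so the 46 shared bases were shorter than a read and the 7 far shorter. How the authors' processing split reads that touch both genes was not tested.

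Nuclear subunit genes are known to be bound by NRF1 (nuclear respiratory factor 1) and by ETS-family factors such as GABP (also called NRF2, unrelated to the oxidative stress factor). RefSeq promoter windows (GRCh38.p14) were matched for 66 of the 80 nuclear subunits and searched on both strands, without mismatch, for the NRF1-type core CGCATGCG and the ETS-type core CCGGAAGT. The NRF1-type core lay in 10 of the 66 windows (15.2%), against 598 of all 27305 windows (2.19%). The ETS-type core also lay in 10 (15.2%), against 1211 of all windows (4.44%). SDHD alone held both, as 0.249% of all windows did. A stretch upstream of the RefSeq start is shown for 1 gene of each complex, chosen among the genes named below (for NDUFS7 it lies inside the gene as GENCODE 44 draws it, which starts at 1383527), with the core in capitals as it reads on the gene's strand.
NDUFS7 (complex I, chr19:1383821-1383852, plus strand): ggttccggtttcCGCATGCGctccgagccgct
SDHD (complex II, chr11:112086752-112086814, plus strand): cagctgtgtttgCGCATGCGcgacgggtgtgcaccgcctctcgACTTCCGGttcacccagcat
UQCR11 (complex III, chr19:1605560-1605591, minus strand): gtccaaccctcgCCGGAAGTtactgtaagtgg
COX8A (complex IV, chr11:63974589-63974619, plus strand): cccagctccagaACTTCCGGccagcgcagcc
ATP5ME (complex V, chr4:674334-674365, minus strand): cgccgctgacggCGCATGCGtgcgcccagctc
These matches describe letters in the windows only, and no binding was measured.

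TPM, scaled to a common total, added up to 999181 to 999300 per library at 3 h and to 997870 to 998397 at 6 h, and Pearson's r between any pair of libraries of a time ran from 0.977 to 0.988 at 3 h and from 0.972 to 0.981 at 6 h, across all symbols tested and in log2 units. The depth of single libraries is unknown, while the authors' mean normalized counts added up to 31902241 at 3 h and 30205203 at 6 h, of which the members took 2.60% and 2.49%. In TPM the members took 5.34% to 6.93% of a library at 3 h and 5.07% to 6.54% at 6 h. Epithelial markers were abundant in the group means (KRT8 6511 to 7246 TPM, CDH1 714 to 933 TPM, EPCAM 314 to 332 TPM), and of the basal markers KRT5 was at 40.8 to 60.6 TPM and TP63 at 0.08 to 0.15 TPM. The secretory markers SCGB1A1, SCGB3A1, MUC5AC and MUC5B were not listed. Of the markers of other cell types, COL1A1 of fibroblasts was at 12.3 to 13.5 TPM, CDH5 of endothelium at 3.13 to 3.99 TPM and DNAH5 of ciliated cells at 2.48 to 2.91 TPM, and all others that were listed, leukocyte markers included, were at most at 0.66 TPM. No member was called in any comparison, and no member had all 4 treated libraries on 1 side of all 4 Ctrl libraries at either time.

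Subunit mRNAs of the same complex differed widely in level. Over the 16 libraries the median of the 80 nuclear subunits was 205 TPM, and by complex it was 137 TPM for complex I, 187 TPM for complex II, 216 TPM for complex III, 314 TPM for complex IV and 233 TPM for complex V. The highest nuclear mRNAs were UQCRQ of complex III (1937 TPM), ATP5MF of complex V (1535 TPM) and COX7C of complex IV (1411 TPM), all small accessory subunits. UQCRFS1, the Rieske iron-sulfur protein that carries electrons within complex III, was at 21.5 TPM, the lowest of its complex. In complex I the range ran from NDUFV3 (16.1 TPM) to NDUFV2, an iron-sulfur subunit of the NADH-oxidizing arm (456 TPM), in complex II from SDHD (52.0 TPM) to SDHC (265 TPM), both membrane anchors, and in complex V the lowest was ATP5F1D of the central stalk (103 TPM).

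The 13 mitochondrial mRNAs had a median of 1592 TPM, and their sum exceeded that of the 80 nuclear subunits in 15 of the 16 libraries. MT-ATP8 stood highest at 13284 TPM, followed by MT-ND4L at 4617 TPM, MT-CO2 at 4459 TPM and MT-CO1 at 2482 TPM. The order was another in the authors' mean normalized counts, which are not divided by length. There MT-CO1, the catalytic subunit of complex IV, led with 142755 at 3 h and 138464 at 6 h, while MT-ATP8 had 6520 and 5281 and MT-ATP6, from the same mRNA, 47207 and 41701. MT-ATP8 is 207 bases long and MT-ATP6 681. Without MT-ATP8 and MT-ND4L the mitochondrial sum in Ctrl at 3 h was 17482 TPM, in place of 35654 TPM, so these short genes carried a large part of every mitochondrial sum below.

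**Figure D1:**
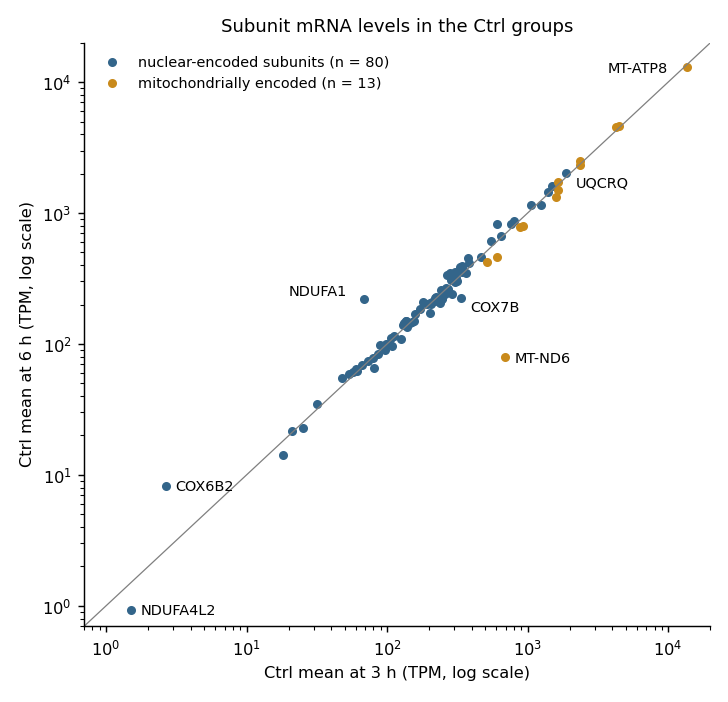
Mean TPM of the 93 subunit mRNAs in Ctrl at 3 h (horizontal) and in Ctrl at 6 h (vertical), both on log scales, with 1 point per gene and the line of equal levels. Most points lie along the line, whereas MT-ND6 lies far below it (692 and 79.0 TPM) and NDUFA1 above it (68.9 and 220 TPM).

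Levels in Ctrl at the 2 times are set side by side without a test, because the tables list different features and were made from separate experiments, so time and experiment cannot be told apart. The ratio of the 6 h to the 3 h mean was within 1.5-fold for 89 of the 93 subunits, with a median of 1.03 for nuclear and 0.924 for mitochondrial genes. The 4 exceptions were MT-ND6, NDUFA1, COX6B2 and NDUFA4L2, the last at a level near 1 TPM. MT-ND6, a membrane subunit of complex I, had 680, 722, 776 and 588 TPM in the 4 Ctrl libraries at 3 h and 567, 833, 775 and 681 TPM with D. rotundifolia 3×. At 6 h it had 58.6, 74.6, 108 and 74.2 TPM in Ctrl and 72.9, 75.6, 79.3 and 47.5 TPM with treatment. Every 3 h library thus lay above every 6 h library, in both groups, and the ratio of Ctrl means was 0.114. The authors' mean normalized count also differed, 8617 at 3 h and 854 at 6 h, while among the other 12 mitochondrial mRNAs the lowest ratio of Ctrl means was 0.771, for MT-ND1. MT-ND6 is read from the strand opposite to those 12.

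NDUFA1, a small X-encoded accessory subunit of complex I, had 69.7, 67.4, 66.2 and 72.1 TPM in Ctrl at 3 h and 241, 216, 222 and 201 TPM in Ctrl at 6 h, a ratio of 3.19. Its mean normalized count did not follow, at 1667 and 1565. Nor did the counts of COX6B2 (169 at 3 h and 161 at 6 h, with a ratio of Ctrl mean TPM of 3.08) and NDUFA4L2 (49.4 and 57.2, with a ratio of 0.620). TPM divides by the transcript length that the processing assigned and the mean normalized count does not. COX7B of complex IV was lower at 6 h in TPM (337 ± 13.7 against 225 ± 23.0, SD, n = 4 each), a ratio of 0.670, and had counts of 3088 and 2665. What set these levels apart was not tested.

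At 3 h the nuclear subunits stayed within a narrow range of Ctrl. None of the 100 members was called by limma with Benjamini-Hochberg adjustment over all symbols, and neither was any other symbol (0% of the 12919 tested). The paper, with DESeq2 on counts, called genes at both times, with CYP1B1 the strongest at 3 h. The limma fits called fewer symbols than the paper at either time, so a member left uncalled is not shown to be unchanged. The adjusted p was 1.00 for every member. With the replicate number as a block, which pairs the libraries at this time, limma called 1 symbol and no member. In that fit the smallest unadjusted p of members were 0.0021 for NDUFA3 and 0.0026 for NDUFB5 (limma, adjusted p = 0.525 and 0.532). COX6B2, UQCR11 and NDUFB11 also lay under 0.05 unadjusted (0.024, 0.032 and 0.041), with no share of all symbols counted beside them. Without the block, limma gave 311 of all symbols (2.41%) and 2 of the 100 members, NDUFB5 and NDUFA3, at an unadjusted p under 0.05. Groups that did not overlap were found in 1.02% of all symbols with treatment higher and 0.503% with treatment lower, against 0 members in both directions. Of the 80 nuclear subunits, 22 had a positive log2 change and 58 a negative one, with a median of −0.02 beside 0.01 for all symbols tested, of which 7473 were positive. The 95% interval of the log2 change lay within ±0.25 for 72 nuclear subunits and within ±0.5 for 78, with COX6B2 and NDUFA4L2 as the exceptions.

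**Figure D2:**
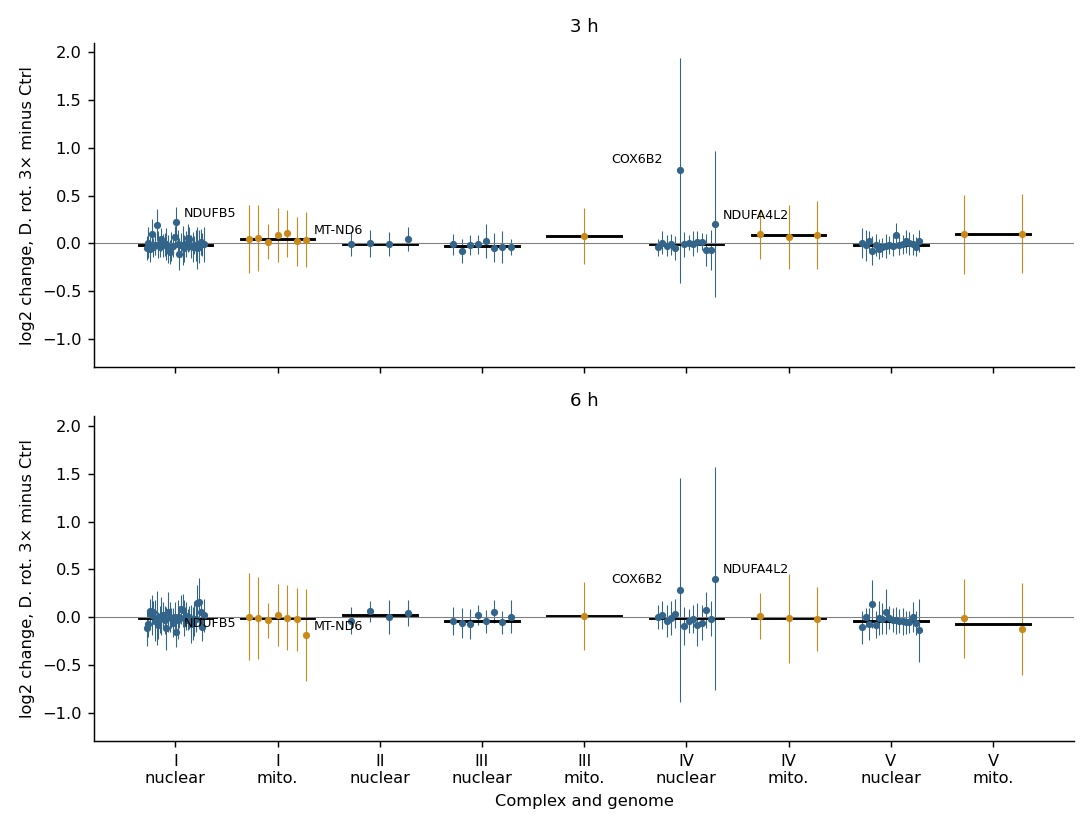
Log2 change of each subunit mRNA (D. rotundifolia 3× minus Ctrl, on the log2(TPM + 1) scale) at 3 h (top) and 6 h (bottom), by complex and genome, with 95% limma intervals and the median of each class as a black bar. Blue points are nuclear and orange points mitochondrial genes. The medians lie between −0.07 and 0.10, and wide intervals belong to COX6B2 and NDUFA4L2, both at low TPM.

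By complex, positive changes at 3 h were seen in 9 of 36 nuclear subunits of complex I (median −0.02), 1 of 4 of complex II (median −0.002), 1 of 8 of complex III (median −0.03), 6 of 14 of complex IV (median −0.01) and 5 of 18 of complex V (median −0.02). NDUFB5, an accessory subunit of the membrane arm of complex I (chromosome 3, 179604690 to 179627647, plus strand, GRCh38, GENCODE 44), had 296, 271, 275 and 284 TPM in Ctrl and 364, 311, 295 and 346 TPM with D. rotundifolia 3×. The treated library of replicate 3 lay just below the Ctrl library of replicate 1, and the other 3 lay above all Ctrl libraries. The log2 change was 0.22 with a standard error of 0.072 (limma, adjusted p = 1.00), with an unadjusted p of 0.0142 and treatment higher in 4 of 4 same-numbered libraries. NDUFA3, another accessory subunit of complex I, had 299, 268, 252 and 261 TPM in Ctrl and 342, 286, 297 and 308 TPM with treatment, so that the groups overlapped. Its log2 change was 0.19 with a standard error of 0.074 (limma, adjusted p = 1.00), and its 3 h value sums 2 gene IDs of the symbol.

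The nuclear subunits with a negative change and the smallest p of their complex at 3 h all overlapped between groups. NDUFB11 of the complex I membrane arm had 69.1, 67.6, 63.4 and 65.9 TPM in Ctrl and 63.5, 63.5, 58.8 and 64.0 TPM with treatment, a log2 change of −0.09 (standard error 0.055). UQCR11, a small subunit of complex III, had 130 ± 5.75 TPM in Ctrl and 123 ± 5.43 TPM with treatment (SD, n = 4 each), and COX4I1, the regulatory subunit around the complex IV core, 650 ± 18.7 and 631 ± 10.1. ATP5IF1, which inhibits the ATP synthase when the proton gradient fails and is no structural subunit, had 246 ± 9.30 and 236 ± 5.51. NDUFB11, UQCR11 and COX4I1 were lower with treatment in 4 of 4 same-numbered libraries, as were 10 of the 80 nuclear subunits in all. NDUFB5, NDUFA3 and COX7B, 3 of the 80, were higher in all 4. The share of all symbols that did so was not counted, so these counts are not read as a result about the subunits. SDHA, the succinate-oxidizing subunit of complex II, had 142, 125, 133 and 129 TPM in Ctrl and 129, 137, 127 and 131 TPM with treatment, with a 95% interval of the log2 change from −0.13 to 0.11.

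Positive changes with the smallest p in the other complexes were small at 3 h. ATP5ME, an accessory subunit of the ATP synthase membrane part, had 618, 569, 638 and 610 TPM in Ctrl and 606, 617, 666 and 692 TPM with treatment, a log2 change of 0.08 (standard error 0.059). UQCRC2, a core subunit of complex III, was at 314 ± 17.2 and 320 ± 33.5 TPM (SD, n = 4 each). SDHD was at 47.5 ± 1.03 and 49.0 ± 2.27 TPM, a difference smaller than the spread of the treated libraries.

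The mitochondrial mRNAs at 3 h varied far more between libraries than the nuclear ones, and did so together. Their sum was 37163, 35916, 40631 and 28905 TPM in the Ctrl libraries and 32515, 45288, 43658 and 31147 TPM in the treated libraries, in order of replicate number. Treated replicates 2 and 3 were the highest of the 8 and Ctrl replicate 4 the lowest, with the groups overlapping (35654 ± 4922 against 38152 ± 7350, SD, n = 4 each). The sum of the nuclear subunits in the same libraries stayed between 22890 and 23879 TPM, so its coefficient of variation was 1.81% in Ctrl and 1.88% with treatment against 13.8% and 19.3% for the mitochondrial sum. As the ratio of mitochondrial to nuclear sum, Ctrl gave 1.52 ± 0.217 and treatment 1.64 ± 0.343. In bulk RNA, fewer cells that carry an mRNA and less of it per cell cannot be told apart.

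**Figure D3:**
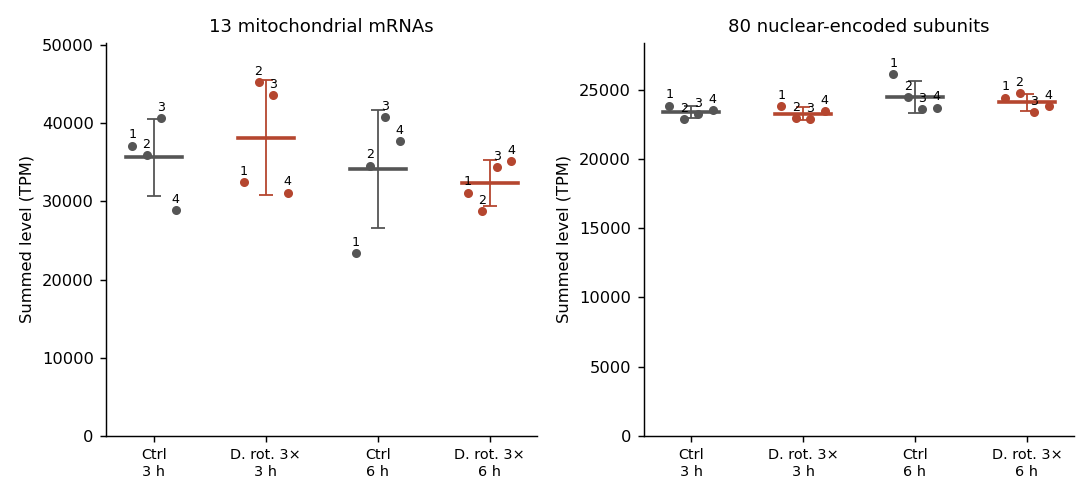
Summed TPM of the 13 mitochondrial mRNAs (left) and of the 80 nuclear-encoded subunits (right) in each library, with replicate numbers beside the points, the mean as a bar and the SD as a whisker (n = 4 per group). The mitochondrial sums run from 23411 to 45288 TPM and overlap between Ctrl and D. rotundifolia 3× at both times, while the nuclear sums stay between 22890 and 26158 TPM.

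All 13 mitochondrial mRNAs had a positive log2 change at 3 h, from 0.02 (MT-ND3) to 0.10 (MT-ND4L), with a median of 0.08. The shared sign is not 13 separate results, since the genes were high and low in the same libraries. Ctrl replicate 4 was the lowest of the 8 libraries for 11 of the 13, and treated replicate 2 the highest for 9. Same-numbered libraries differed in both directions: treatment was higher for 0 of the 13 in replicate 1, 13 in replicate 2, 10 in replicate 3 and 13 in replicate 4. Leaving out libraries gave medians from −0.02 (without Ctrl replicate 4) to 0.17 (without replicate 1 of both groups), with −0.01 without treated replicate 2, 0.01 without treated replicate 3, 0.16 without treated replicate 4, 0.13 without treated replicate 1 or Ctrl replicate 3 and 0.12 without Ctrl replicate 1.

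MT-ATP8 and MT-CO1, highest in TPM and in mean count, showed this arrangement. MT-ATP8 had 13763, 14108, 16181 and 10717 TPM in Ctrl and 11856, 18544, 17551 and 11586 TPM with treatment, and the log2 change was 0.10 ± 0.18 (standard error). MT-CO1 had 2523, 2341, 2546 and 2033 TPM in Ctrl and 2145, 2920, 2801 and 2260 TPM with treatment, a log2 change of 0.09 (standard error 0.12). Groups overlapped for both, with treated replicates 2 and 3 above every Ctrl library and treated replicate 1 below 3 of them. MT-CYB, the single mitochondrial subunit of complex III and the site of its quinone chemistry, was at 884 ± 104 and 937 ± 154 TPM (SD, n = 4 each). The 95% intervals of the 13 lay within ±0.5 for 11 genes, the exceptions being MT-ATP6 and MT-ATP8.

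**Figure D4:**
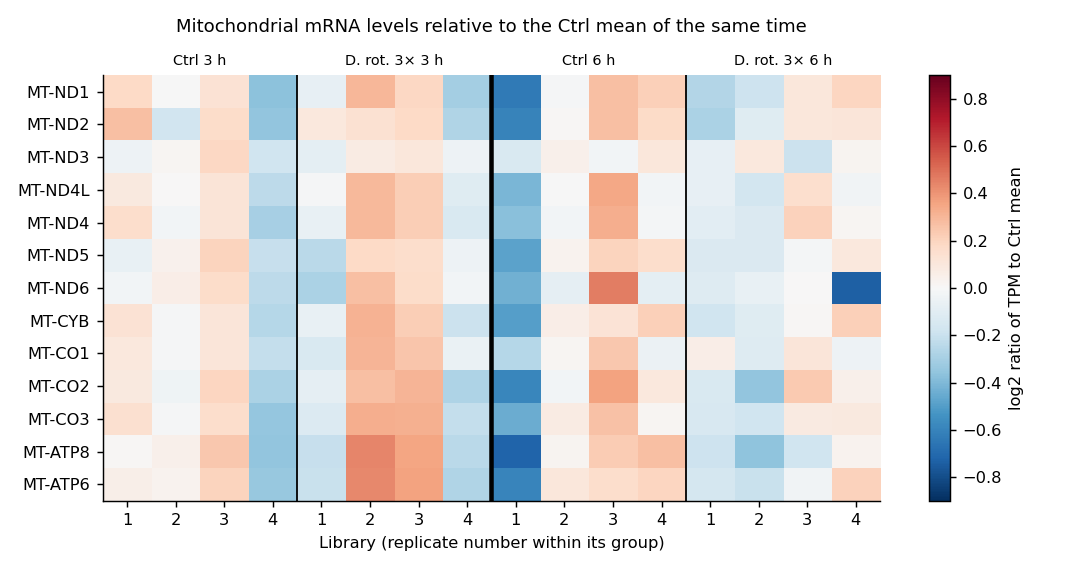
Log2 ratio of the TPM of each of the 13 mitochondrial mRNAs (rows) to the Ctrl mean of the same time, in each of the 16 libraries (columns, replicate numbers within group; red higher, blue lower). Columns rather than groups stand out: Ctrl replicate 4 at 3 h and Ctrl replicate 1 at 6 h are the lowest libraries for 11 of the 13 mRNAs each, and MT-ND6 departs from the other rows at 6 h.

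At 6 h again no member was called, where limma called 16 of the 14179 symbols tested (0.113%), all higher with treatment. The smallest adjusted p of a member was 0.603, for NDUFB5. NDUFB5 was also the only 1 of the 100 members with an unadjusted p under 0.05, beside 8.03% of all symbols, and 0 members had groups apart, beside 3.43% of all symbols with treatment higher and 1.65% with treatment lower. Of the nuclear subunits 30 had a positive and 50 a negative log2 change, with a median of −0.02 beside 0.01 for all symbols. Treatment was higher for 7 of the 80 in replicate 1 and for 47, 38 and 45 in replicates 2, 3 and 4, and without Ctrl replicate 1 the median was 0.005. Intervals lay within ±0.25 for 61 of the 80 and within ±0.5 for 78, COX6B2 and NDUFA4L2 excepted once more.

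Positive changes at 6 h, complex by complex, were counted in 15 of 36 nuclear subunits of complex I (median −0.01), 3 of 4 of complex II (median 0.02), 3 of 8 of complex III (median −0.04), 6 of 14 of complex IV (median −0.01) and 3 of 18 of complex V (median −0.04). NDUFB5, which was higher with treatment at 3 h, had 357, 331, 343 and 367 TPM in Ctrl and 316, 343, 284 and 312 TPM with D. rotundifolia 3×. Only treated replicate 2 reached into the Ctrl range. The log2 change was −0.16 with a standard error of 0.066 (limma, adjusted p = 0.603).

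The other nuclear subunits picked for their p at 6 h all had overlapping groups. ATP5F1A, a catalytic-ring subunit of the ATP synthase, was at 144 ± 13.9 TPM in Ctrl and 133 ± 7.44 TPM with treatment (SD, n = 4 each), a log2 change of −0.11 (standard error 0.076). ATP5F1D of its central stalk had 114, 87.4, 96.3 and 87.5 TPM in Ctrl and 89.3, 113, 115 and 106 TPM with treatment, with Ctrl replicate 1 among the highest values and the other 3 Ctrl libraries among the lowest, and a log2 change of 0.14 (standard error 0.11). NDUFS7, an iron-sulfur subunit close to the quinone site of complex I, had 25.5, 22.4, 21.4 and 21.2 TPM in Ctrl and 22.0, 25.6, 26.2 and 26.7 TPM with treatment, the same arrangement, and a log2 change of 0.14 with a standard error of 0.085 (limma, adjusted p = 0.719). Leaving out libraries moved the log2 change of ATP5F1D from 0.06 (without replicate 2 of both groups) to 0.30 (without replicate 1) and that of NDUFS7 from 0.08 (without replicate 4) to 0.26 (without replicate 1), and neither was called.

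Changes were smaller for the other genes chosen by p at 6 h. UQCRB of complex III was at 257 ± 14.3 and 244 ± 19.3 TPM, and COX6C of complex IV at 364 ± 29.2 and 342 ± 35.2 (Ctrl and treated, SD, n = 4 each). UQCRFS1 was at 21.7 ± 0.650 and 22.6 ± 0.592 TPM, COX8A, a small complex IV subunit, at 415 ± 41.0 and 436 ± 31.6, and SDHB, the iron-sulfur subunit of complex II, at 225 ± 9.19 and 235 ± 6.01. These 5 had log2 changes between −0.09 and 0.07 with adjusted p from 0.805 to 0.866 from limma.

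The mitochondrial sum at 6 h was 23411, 34582, 40765 and 37697 TPM in Ctrl and 31127, 28782, 34352 and 35134 TPM with D. rotundifolia 3×. Ctrl replicate 1 was lowest and Ctrl replicate 3 highest of the 8, so the treated range lay inside the Ctrl range (34114 ± 7568 against 32349 ± 2943, SD, n = 4 each). Ctrl replicate 1 was the lowest library for 11 of the 13 mitochondrial mRNAs and the highest for 36 of the 80 nuclear subunits, in values that share 1 fixed total per library. The ratio of mitochondrial to nuclear sum was 0.895 in that library and 1.41 to 1.73 in the other Ctrl libraries, against 1.16 to 1.47 with treatment.

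Of the 13 mitochondrial mRNAs 4 had a positive and 9 a negative log2 change at 6 h, with a median of −0.01 and a range from −0.19 (MT-ND6) to 0.02 (MT-ND4). The median was −0.17 without Ctrl replicate 1 and 0.08 without Ctrl replicate 3, so single Ctrl libraries set its sign. MT-ATP8 had 7873, 13198, 15197 and 15654 TPM in Ctrl and 11434, 10110, 11471 and 13299 TPM with treatment, a log2 change of −0.12 with a standard error of 0.21 (limma, adjusted p = 0.914). Without Ctrl replicate 1 it was −0.35, still not called. MT-ND6 had its lowest value, 47.5 TPM, in treated replicate 4, where MT-CYB had 902 TPM, its highest of the 8 libraries at 6 h. MT-CO1 was at 2515 ± 362 and 2520 ± 175 TPM (SD, n = 4 each).

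The change with treatment was then compared between times in 1 fit of all 16 libraries. None of the 100 members was called, where limma called 1 of 12313 symbols (0.00812%). The effect at 6 h minus the effect at 3 h was negative for all 13 mitochondrial mRNAs (median −0.08, adjusted p = 0.999 from limma for each) and for 41 of 80 nuclear subunits (median −0.01, beside −0.01 for all symbols). The shared sign of the 13 is again not 13 separate results, since they tended to be high or low in the same libraries. Their median ran from −0.24 without Ctrl replicate 1 of 6 h to 0.006 without Ctrl replicate 4 of 3 h, and was 0.003 without Ctrl replicate 3 of 6 h. For NDUFB5 the difference was −0.38 (standard error 0.099, adjusted p = 0.999 from limma), with an unadjusted p of 0.00167, the smallest of the members, and a 95% interval of −0.59 to −0.17. Its Ctrl mean itself was 281 ± 11.0 TPM at 3 h and 349 ± 15.8 TPM at 6 h, with mean normalized counts of 1931 and 1898, while the treated means were 329 ± 31.7 and 314 ± 24.3 TPM (SD, n = 4 each).

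**Figure D5:**
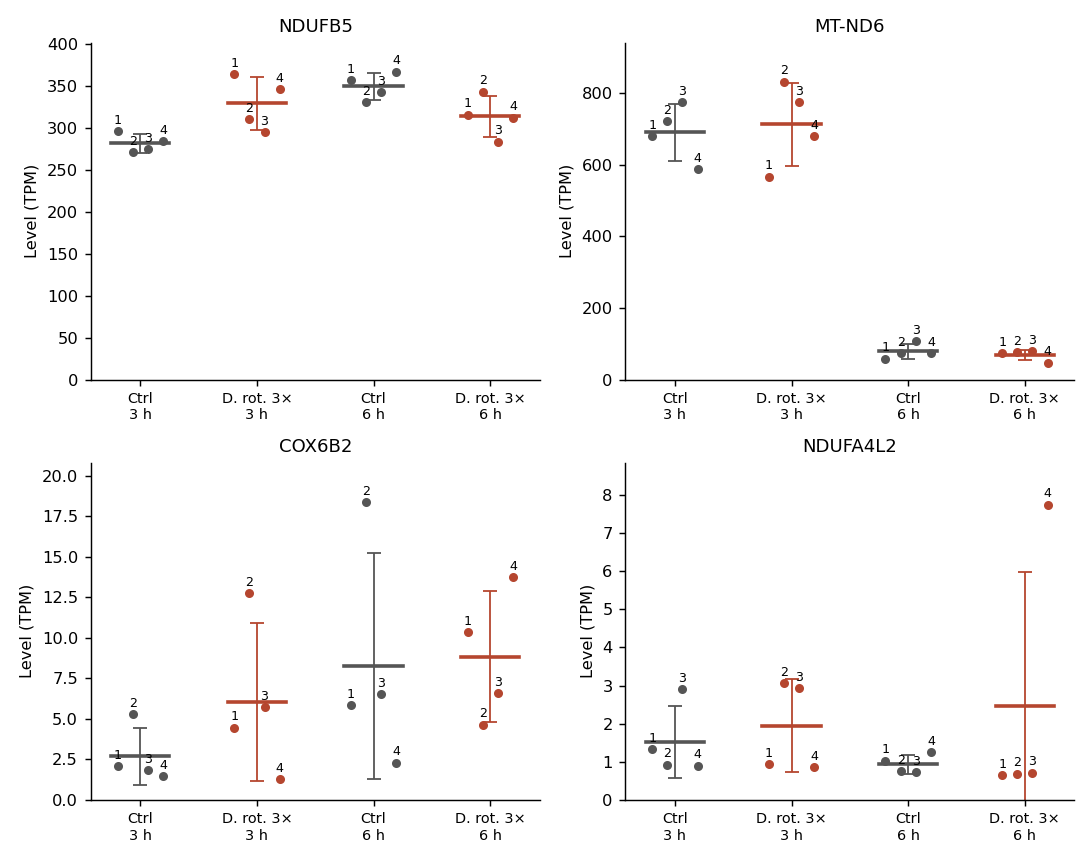
TPM of NDUFB5, MT-ND6, COX6B2 and NDUFA4L2 in each library (grey Ctrl, red D. rotundifolia 3×, numbers are replicate numbers, bar mean, whisker SD with n = 4, cut at 0). NDUFB5 means are 281 and 329 TPM at 3 h and 349 and 314 TPM at 6 h, MT-ND6 runs from 567 to 833 TPM at 3 h and from 47.5 to 108 TPM at 6 h, and a single treated library at 6 h carries NDUFA4L2.

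Several complex IV subunits exist as paralogous isoforms, and of those listed the abundant ones were those of general use. COX4I1, COX6A1, COX6B1, COX7A2 and COX8A, which most tissues express, averaged 653, 414, 1108, 829 and 400 TPM over the 16 libraries. COX4I2 and the heart and muscle isoforms COX6A2 and COX7A1 were not listed, nor was COX8C. COX6B2, the testis isoform of COX6B1, had 2.08, 5.31, 1.84 and 1.47 TPM in Ctrl and 4.45, 12.8, 5.70 and 1.25 TPM with D. rotundifolia 3× at 3 h. Its log2 change was 0.76 (95% interval −0.41 to 1.94, adjusted p = 1.00 from limma), and replicate 2 was the highest library in both groups. The change was 0.35 without treated replicate 2 and 1.217 without treated replicate 4. At 6 h it had 5.84, 18.4, 6.51 and 2.28 TPM in Ctrl and 10.3, 4.64, 6.59 and 13.7 TPM with treatment, a log2 change of 0.28 that became 0.97 without replicate 2 and −0.35 without replicate 4. COX6B1, by contrast in level, was at 1064 ± 52.6 and 1030 ± 53.6 TPM at 3 h and 1154 ± 76.7 and 1182 ± 70.1 TPM at 6 h (Ctrl and treated, SD, n = 4 each).

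NDUFA4, now counted as a subunit of complex IV, was at 238 ± 27.3 and 226 ± 19.6 TPM at 3 h and 207 ± 23.7 and 203 ± 7.07 TPM at 6 h. Its hypoxia-inducible paralog NDUFA4L2 had 1.32, 0.923, 2.90 and 0.894 TPM in Ctrl and 0.935, 3.07, 2.92 and 0.865 TPM with treatment at 3 h. At 6 h it had 1.03, 0.755, 0.716 and 1.24 TPM in Ctrl and 0.655, 0.686, 0.710 and 7.75 TPM with treatment, so that 3 treated libraries lay below all Ctrl libraries and replicate 4 far above them. The log2 change of 0.40 (standard error 0.51) therefore rested on 1 library. Only through that library did NDUFA4L2 pass the minimum of 1 TPM at 6 h, so its place among the members depends on it as well, and without it the gene was not tested at that time. The c-ring of the ATP synthase is made from 3 genes with the same mature protein, and ATP5MC1 averaged 305 TPM, ATP5MC2 198 TPM and ATP5MC3 208 TPM, with log2 changes from −0.04 to 0.05 over both times.

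Of the 7 matches that name no subunit, 5 share 75-base windows with a subunit's transcripts, so their values are uncertain, while COX5BP6 and COX5BP7 shared 0 windows with COX5B. Of the 75-base windows in the GENCODE 44 transcript of COX7CP1, a processed copy of COX7C, 28 of 118 (23.7%) also occur in COX7C transcripts, and of those of COX6A1P2 136 of 256 (53.1%) occur in COX6A1. COX7CP1 averaged 539 TPM with mean normalized counts of only 185 at 3 h and 243 at 6 h, where COX7C had 7079 and 6760. COX6A1P2 averaged 193 TPM. Some nuclear copies of mitochondrial genes overlapped the mitochondrial mRNAs likewise, although MTCO1P40 shared 0 of 551 windows with MT-CO1. MTATP6P1 shared 170 of its 607 windows with MT-ATP6, MTND2P28 333 of 970 (34.3%) with MT-ND2 and MTND1P23 144 of 298 (48.3%) with MT-ND1. MTATP6P1 was at 308 TPM in Ctrl and 335 TPM with treatment at 3 h and at 310 and 305 TPM at 6 h. None of the 7 matches was called, and their log2 changes ran from −0.13 to 0.22 at 3 h and from −0.21 to 0.16 at 6 h.

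Genes around the complexes were tested in the same fits and none was called by limma at 3 h or 6 h. Of 10 carriers and subunits that the symbol rule misses, such as cytochrome c (CYCS) and CYC1 of complex III, 3 had positive and 7 negative changes at 3 h (median −0.004) and 7 and 3 at 6 h (median 0.01). CYCS was at 168 and 168 TPM in Ctrl and treated cells at 3 h and at 147 and 155 TPM at 6 h. The 54 assembly factors, which build the complexes without staying in them, had medians of 0.01 and 0.02, and the smallest p belonged to NDUFAF4, a complex I assembly factor, at 6 h (means of 17.8 TPM in Ctrl and 24.6 TPM with treatment, overlapping groups, log2 change 0.45, standard error 0.12, adjusted p = 0.370 from limma).

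Genes that express and copy mitochondrial DNA had medians of 0.04 over 32 tested at 3 h and 0.03 over 33 at 6 h. TFAM, which packages mitochondrial DNA and starts its transcription, was at 69.0 and 69.9 TPM at 3 h and 67.5 and 64.7 TPM at 6 h (Ctrl and treated means). MTERF1, a mitochondrial transcription termination factor, had 10.8 to 11.4 TPM in Ctrl and 8.64 to 9.94 TPM with treatment at 6 h. Its groups did not overlap, as in 1.65% of all symbols with treatment lower, and its log2 change was −0.24 with a standard error of 0.068 (limma, adjusted p = 0.406). The 13 regulators of mitochondrial biogenesis that were tested had medians of −0.003 at 3 h and 0.04 at 6 h. NRF1 was at 8.73 and 8.95 TPM at 3 h and 8.88 and 8.96 TPM at 6 h, and PPARGC1A, a main coactivator of the program, was not listed. GABPA, the DNA-binding part of GABP, was at 11.2 and 11.2 TPM at 3 h and 10.9 and 10.7 TPM at 6 h. At 6 h 3 of the 13 had an unadjusted p under 0.05 from limma, GABPB1, MYC and TFEB, beside 8.03% of all symbols. None was called, and so few genes are not read as a result about the list. GABPB1, the partner of GABPA, had 13.5 to 23.7 TPM in Ctrl and 24.4 to 27.9 TPM with treatment. Its groups did not overlap, as in 3.43% of all symbols with treatment higher, and its log2 change was 0.40 (standard error 0.16, limma, adjusted p = 0.593). MYC, a growth regulator, was at means of 15.2 and 22.0 TPM with overlapping groups, a log2 change of 0.48 (limma, adjusted p = 0.556). Largest in fold at 6 h was TFEB, a lysosomal and mitochondrial regulator (2.33 to 3.17 TPM in Ctrl, 2.84 to 5.30 TPM with treatment, log2 change 0.53, standard error 0.16, adjusted p = 0.437 from limma). Mitochondrial ribosomal proteins, 83 tested at 3 h and 85 at 6 h, had medians of −0.01 and 0.02. The rRNAs MT-RNR1 and MT-RNR2 were listed at 6 h and had log2 changes between −0.02 and 0.03.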

How the data were processed

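The authors quantified single-end poly(A) RNA-seq reads with Salmon 0.13.1 against GENCODE 32 (GRCh38.p13), summed transcripts to genes with tximport and dropped genes with few reads. For each time the authors deposited TPM per gene and library, labelled lengthScaledTPM, beside a signal, the mean of their normalized counts over the 8 libraries. Not used were the deposited log2 fold change, the Wald statistic (a score) and the p-value, all from the authors' DESeq2 1.22.2. Counts of single libraries were not used, so no counting error is given.

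Repeated rows at 6 h (89) were dropped. TPM was summed over the IDs of a symbol. Symbols that averaged 1 TPM or more entered a two-sided limma fit (version 3.58.1, R 4.3.3) on log2(TPM + 1) with an intensity trend. Benjamini-Hochberg adjustment ran over every symbol of the fit and the threshold was 0.05. The fits of 3 h and 6 h were separate, and the difference between times was an interaction in 1 fit of all 16 libraries. A fold change on this scale understates the change of low genes. The 95% intervals use limma's standard errors and are not adjusted. Sums and medians over members have no test. The fits were tested on simulated data, with changes of 1 log2 unit in genes that varied independently. These changes were larger than those of any member, so the power to find changes as small as theirs was not tested. Groups came from the labels.

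Members and lists were chosen with earlier results of these data known. Genes named are the 13 mitochondrial mRNAs, per complex and time the nuclear subunit with the smallest p in each direction, per complex the highest and lowest in TPM, and paralogous isoforms. NDUFA3, NDUFA1, COX7B, CYCS, TFAM, NRF1, GABPA, GABPB1, MYC, NDUFAF4, MTERF1 and TFEB were added after their values were seen. The main fits had no term for the replicate number at either time, so their standard errors, intervals and adjusted p do not use pairs. Residuals of same-numbered libraries after removing group means correlated from 0.187 to 0.470 at 3 h, each above 0.1. The fit with the number as a block was therefore read as a paired one at that time. At 6 h the same correlations were all positive (0.0564, 0.0973, 0.158 and 0.204 for replicates 1 to 4), but only 2 of 4 lay above 0.1. Pairs were not assumed at 6 h, which does not show that the libraries were unpaired. Alternatives were other pseudocounts, filters, scalings, gene IDs, no trend, the number as a block and leaving out libraries. Sequences are from RefSeq (GRCh38.p14), hg38 and GENCODE 44, which gives all gene coordinates.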

Additional observations from a re-analysis of the deposited data

Results flagged for a closer look

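Among 188 groups of 4 libraries (45 named genes and 2 sums in 4 groups), 13 held a library far from the other 3, where chance gives about 9.4. NDUFA4L2 at 6 h had 7.75 TPM in treated replicate 4, beside 0.655 to 0.710 in the other treated libraries. COX6B2 at 3 h had 5.31 TPM in Ctrl replicate 2, beside 1.47 to 2.08. MT-ATP6 at 6 h had 1539 TPM in Ctrl replicate 1, beside 2496 to 2660, in the library with the lowest mitochondrial sum. In that same library COX7C was at 1647 TPM, beside 1378 to 1386.

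At 3 h the highest treated library was apart for NDUFA4 (255 TPM), NDUFS7 (28.1 TPM) and UQCRQ (1905 TPM), the lowest treated library for NDUFB11 (58.8 TPM) and SDHC (241 TPM), and the highest Ctrl library for SDHB (273 TPM). At 6 h the lowest library was apart for ATP5MC2 with treatment (188 TPM) and for COX7A2 (799 TPM) and UQCRFS1 (20.8 TPM) in Ctrl. No causes were tested.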

How the results depend on the processing

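None of the 100 members was called at 3 h, at 6 h or between the times under any alternative tried, and leaving out each library, or both of a number, gave 0 called members throughout. Medians over nuclear and over mitochondrial subunits moved by less than their spread between libraries in every alternative. For leaving out libraries this says little, since 1 of 4 libraries can move a group mean by only a part of that spread. The mitochondrial median changed sign there, from −0.02 to 0.17 at 3 h and from −0.17 to 0.08 at 6 h. With the replicate number as a block, limma called 1 symbol at 3 h, 40 at 6 h (38 higher, 2 lower) and 32 for the difference between times (30 higher, 2 lower), none of them a member. The smallest adjusted p of a member with the block was 0.525 at 3 h (NDUFA3), 0.258 at 6 h (NDUFB1) and 0.128 for the difference between times (NDUFB5). Without a filter on low values 7 symbols were called at 6 h, and with gene IDs in place of symbols 1 at 3 h. Leaving out libraries gave 0 to 2 called symbols at 3 h (2 without Ctrl replicate 1) and 3 to 47 at 6 h (47 without treated replicate 1, 3 without replicate 4 of both groups). Ctrl and treated cultures shared plates by the study's methods, which do not say that a number marks a plate. At 6 h the libraries were therefore taken to share only a number, and Ctrl replicate 1 correlated best with treated replicate 2 (0.101). Ctrl replicates 2, 3 and 4 each correlated best with the treated library of their own number. The nuclear median at 6 h was 0.005 without Ctrl replicate 1 in place of −0.02. Without the matches that name no subunit, the nuclear sums were 23403 TPM in Ctrl and 23304 TPM with treatment at 3 h and 24115 TPM with treatment at 6 h, in place of 24227, 24165 and 25041 TPM. Named genes differed in sign from the value reported in 86 of 943 alternative values at 3 h and 123 of 942 at 6 h, where neither value was called. Depth per library is unknown, so the limits of low genes such as NDUFA4L2 and COX6B2 come from the spread between libraries alone.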
